A study of Mus musculus with 10 samples.

Results

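A set of 10 genes of fat-cell formation and lipid handling was followed in mouse skeletal cells: Pparg, Cebpa, Cebpd, Zfp423, Fabp4, Lpl, Cd36, Plin2, Plin1 and Adipoq. Their rows were picked by gene name, and the set was chosen with earlier results of these data known. All 10 had 1 row each among 22583 distinct gene names in a table of rib chondrocytes and 22645 in a table of calvarial osteoblasts. The values were FPKM, the fragments of a gene scaled to its length and to all mapped fragments, so levels of different genes can be set side by side.

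The study sequenced RNA from 10 libraries in 4 groups. Rib chondrocytes of ICR mice at postnatal day 1 were sorted from a transgenic line with the Col2a1-ECFP reporter (Col2+, 3 libraries) and from another with the Col10a1-mCherry reporter (Col10+, labelled as hypertrophic, 3 libraries). Osteoblasts were digested from the calvaria (frontal and parietal bones of the skull) of embryos of strain C57BL/6 at E17.5, with the genotype Runx2_cHet_KO or Runx2_cHom_KO, 2 libraries each. By their names these genotypes are conditional deletions of 1 and of both copies of Runx2. The labels say no more. The Cre driver, the pooling of animals and a group with intact Runx2 are not given in the sources used here, so every osteoblast library carried at least the heterozygous genotype. The chondrocyte table held a single authors' value per sort and allows no error or test. The osteoblast table held a value per library, and its p-values reflect the spread of these libraries alone; nothing says they came from separate embryos, so this spread may be technical.

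Mesenchymal cells of bone can become osteoblasts or adipocytes. Pparg, a nuclear receptor, and its partner Cebpa drive and maintain the adipocyte state, Cebpd acts earlier, and the zinc-finger protein Zfp423 marks committed precursors. Runx2 drives the osteoblast state. The other genes handle lipid. Lpl releases fatty acids from lipoproteins, Cd36 takes them up, Fabp4 carries them inside the cell, Plin1 and Plin2 coat lipid droplets, and Adipoq encodes the hormone adiponectin. Several are not restricted to fat: macrophages express Cd36, Lpl and Plin2, and capillary endothelium expresses Fabp4 and Cd36.

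The libraries carried the markers of their labels together with those of other cells. Col2a1 was abundant in both sorts (44205 FPKM in Col2+, 31532 FPKM in Col10+), and Col10a1 was far higher in Col10+ (59.5 against 2895 FPKM). By the 2-fold rule given below, 5 of 6 hypertrophic chondrocyte markers were higher in Col10+ and 1 lower, Spp1 (3400 and 1614 FPKM). With the sorts centred on their median ratio, Spp1 was within the limit (log2 difference -0.77). Ihh, Mmp13, Ibsp and Alpl reached the level for counting only through Col10+, so they could not come out as lower. Of 8 chondrocyte markers 1 was higher, Matn1 (22 and 122 FPKM), and 1 lower, Sox9 (595 and 103 FPKM). In the osteoblast libraries the 9 osteoblast markers summed to 18254 and 16258 FPKM in Runx2_cHet_KO and to 13438 and 13568 FPKM in Runx2_cHom_KO, mostly from Col1a1 and Col1a2. Runx2 itself was at 43.4 and 53.9 FPKM in Runx2_cHet_KO and at 32.9 and 32.6 FPKM in Runx2_cHom_KO (limma adjusted p = 0.0707). A gene-level value does not show whether exons were deleted. Of the 12 macrophage markers 11 were higher and 0 lower in the Col10+ sort. Those 11 reached 5 FPKM only through that sort, so they could not come out as lower. The 8 neutrophil markers summed to 0.262 and 3940 FPKM in Col2+ and Col10+ cells.

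**Figure D1:**
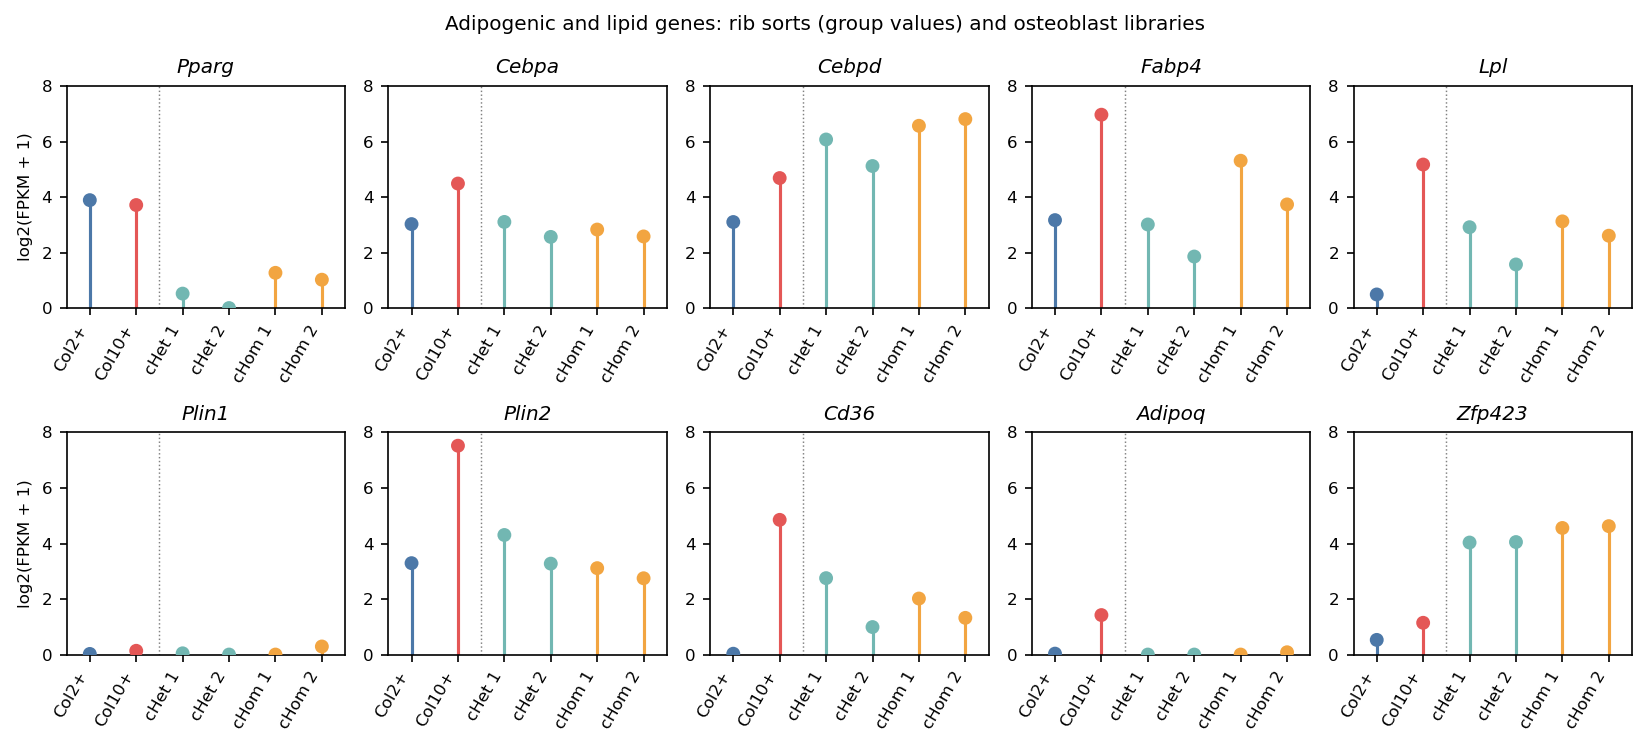
Level of each of the 10 genes as log2(FPKM + 1) in the Col2+ and Col10+ sorts (authors' group values) and in the 4 osteoblast libraries (cHet, Runx2_cHet_KO; cHom, Runx2_cHom_KO). Pparg is at nearly equal levels in both rib sorts and low in the osteoblasts, Plin2 and Fabp4 are highest in Col10+ cells, Cebpd is highest in the osteoblasts, and Plin1 is near 0 throughout.

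The first comparison set the Col10+ sort against the Col2+ sort. The lipid-handling genes Plin2, Fabp4, Lpl and Cd36 and the factors Cebpa and Cebpd were higher in Col10+ cells, while Pparg was at nearly equal levels. The limits for calling a gene higher or lower were a difference in log2(FPKM + 1) of 1, which is 2-fold, and a level of 5 FPKM in the higher sort. By this rule 6 of the 7 members that reached 5 FPKM were higher and 0 were lower. Among all 8354 genes at that level 13.8% were higher and 14.2% lower. A gene that is low in one sort reaches 5 FPKM only through the other, so the count does not speak for all 10 members. In bulk samples more cells of a type and more RNA per cell cannot be told apart.

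Among the regulators, Pparg had 13.8 FPKM in the Col2+ sort against 12.1 FPKM in the Col10+ sort, a log2 difference of -0.18. This lay near the median of all genes tested, -0.31, and became 0.11 once the sorts were centred on their median ratio, so it has no settled direction. Pparg was the most abundant of the 10 genes in Col2+ cells, above 81.5% of all gene names, and the seventh in Col10+ cells, above 81.3%. Cebpa had 7.14 FPKM in the Col2+ sort and 21.4 FPKM in the Col10+ sort. Cebpd had 7.57 against 24.7 FPKM, a 3.27-fold difference in the same direction. Zfp423 was low in both sorts, at 0.442 and 1.21 FPKM, and did not reach the level at which genes were counted.

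The start of Pparg at chr6:115421816-115422115 (plus strand) is shown because, of the 3 Pparg starts in the RefSeq table of build GRCm38.p6, it held the letters of the C/EBP motif. The window runs from 250 bases before to 50 bases after the start. Capitals mark TTGCNNAA, which begins at -215 on the sense strand and at -16 on the antisense strand.
Pparg: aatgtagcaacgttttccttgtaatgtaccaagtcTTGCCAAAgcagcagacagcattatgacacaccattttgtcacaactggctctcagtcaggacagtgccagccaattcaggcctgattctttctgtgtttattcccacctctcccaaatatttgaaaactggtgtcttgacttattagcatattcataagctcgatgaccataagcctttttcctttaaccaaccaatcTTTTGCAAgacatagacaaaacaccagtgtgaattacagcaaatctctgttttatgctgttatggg
The motif, read on both strands and without overlap here with any other motif searched, was in 10.8% of 32851 mouse windows of the same length. FPKM per gene does not show which Pparg start was used.

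The genes that move and store fatty acids differed most. Plin2, the droplet coat found in most cell types, went from 8.8 FPKM in the Col2+ sort to 183 FPKM in the Col10+ sort. It was the most abundant member in Col10+ cells, above 98.9% of all gene names. Fabp4 was at 7.99 and 124 FPKM and came next. Lpl and Cd36 were nearly absent from Col2+ cells. Lpl was at 0.404 FPKM there and 35 FPKM in Col10+ cells, a log2 difference of 4.68. Cd36 was at 0.0208 and 27.9 FPKM, a log2 difference of 4.82, or 7.86 with a pseudocount of 0.1 in place of 1.

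The promoters of Plin2 (chr4:86670010-86670309, minus strand) and Cd36 (chr5:17835847-17836146, minus strand) are shown as those of the members that differed most and had an entry in the same RefSeq table; 7 of the 10 genes had one. Capitals mark the hexamer bound by nuclear receptors, AGGTCA, here on the antisense strand, where it begins at -218 in Plin2 and at -228 in Cd36.
Plin2: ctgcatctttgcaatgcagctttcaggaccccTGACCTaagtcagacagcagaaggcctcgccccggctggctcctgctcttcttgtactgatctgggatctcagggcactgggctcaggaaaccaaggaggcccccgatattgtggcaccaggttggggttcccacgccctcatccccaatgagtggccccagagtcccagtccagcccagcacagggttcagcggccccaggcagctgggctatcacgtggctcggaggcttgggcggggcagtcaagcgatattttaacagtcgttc
Cd36: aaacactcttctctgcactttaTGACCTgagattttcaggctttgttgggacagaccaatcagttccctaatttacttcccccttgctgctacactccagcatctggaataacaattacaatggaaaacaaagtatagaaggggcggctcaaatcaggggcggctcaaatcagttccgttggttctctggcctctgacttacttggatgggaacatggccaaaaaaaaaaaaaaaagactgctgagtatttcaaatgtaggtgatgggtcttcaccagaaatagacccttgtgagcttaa
On either strand the hexamer was in 16.3% of all windows. The longer PPAR element, a pair of AGGTCA hexamers with any 1 base between them, was in 0.0396% of windows, and the RUNX hexamer TGTGGT in 16.8%. Neither had a match in the 10 windows of these genes.

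The genes that mark the finished adipocyte stayed low in both sorts. Adipoq had 0.0231 FPKM in the Col2+ sort against 1.68 FPKM in the Col10+ sort, and Plin1, the droplet coat of adipocytes, was at 0.0156 and 0.0983 FPKM. Both were below the 5 FPKM needed to be counted. In the list of 19 mature adipocyte genes, which includes 5 of the 10 members, only 5 reached 5 FPKM; 4 were higher and 0 lower in Col10+ cells. Beside Fabp4, Lpl and Cd36 the higher one was the triglyceride lipase gene Pnpla2, at 2.37 and 14.9 FPKM. Lpl, Cd36 and Pnpla2 reached 5 FPKM only through the Col10+ sort, so they could not come out as lower. Resistin (Retn), leptin (Lep) and adipsin (Cfd) were listed at 0 in both sorts.

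**Figure D2:**
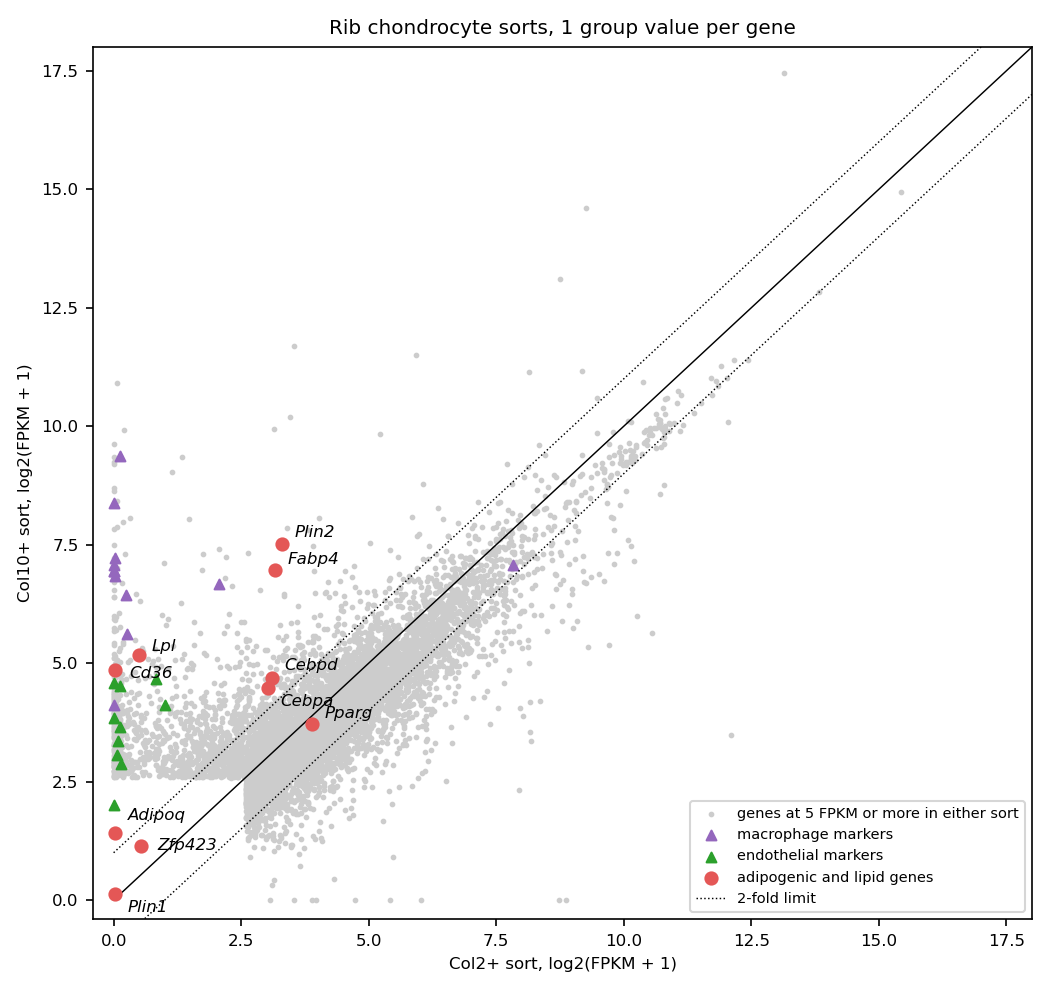
Level of each gene in the Col10+ sort against the Col2+ sort, both as log2(FPKM + 1), for genes that reached 5 FPKM in a sort (grey), the 10 adipogenic and lipid genes (red) and 2 lists of marker genes (triangles); the solid line marks equal levels and the dotted lines the 2-fold limit. Plin2, Fabp4, Lpl, Cd36, Cebpa and Cebpd lie above the upper limit, as does Adipoq at a level under 5 FPKM, Pparg lies close to the line, and nearly all macrophage and endothelial markers lie at the left edge above it.

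Markers of other cells were higher in the same sort, including cells that also express these genes. The 10 endothelial markers summed to 2.19 FPKM in the Col2+ sort against 136 FPKM in the Col10+ sort; all 9 that reached 5 FPKM were higher, and those listed at 0 in the Col2+ sort were Cdh5 and Emcn. The 12 macrophage markers summed to 231 and 2016 FPKM, and the Col2+ sum was almost all Cd14, at 227 FPKM. Tyrobp, C1qa, C1qb, C1qc and Mrc1 had a listed value of 0 in the Col2+ sort. Most markers counted for bone-resorbing, blood and bone-forming cells were higher as well. Of the osteoclast markers 3 of the 4 that reached 5 FPKM were higher in Col10+ cells and 0 lower, with Acp5, the acid phosphatase of osteoclasts, at 2.38 and 156 FPKM. All 3 erythroid markers at that level were higher, among them Alas2 of haem synthesis at 0.101 and 23.6 FPKM. The endothelial and erythroid markers counted were at 1.01 FPKM or less in the Col2+ sort. They reached 5 FPKM only through the Col10+ sort, so these counts could only come out as higher. Macrophage markers called higher were at 3.16 FPKM or less in the Col2+ sort and could not come out as lower. The same holds for Acp5, Atp6v0d2 (0.244 FPKM in the Col2+ sort) and the osteoblast markers Bglap, Ibsp, Alpl and Sp7. Of 9 osteoblast markers 7 were higher and 1 lower. The lower one, Sparc (14610 and 7299 FPKM), was within the limit once the sorts were centred (log2 difference -0.69). Among the higher ones, Ibsp and Alpl are also on the hypertrophic chondrocyte list, so this count does not separate these cell types. Col1a1, the main collagen of bone, was at 10.6 and 3305 FPKM, and Bglap (osteocalcin) had a listed value of 0 in the Col2+ sort and 21.7 FPKM in the Col10+ sort. The part of all these cells in the higher Fabp4, Lpl, Cd36 and Plin2 was not tested.

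Other lipid genes differed in smaller numbers. In the uptake and binding list 6 of 13 genes that reached 5 FPKM were higher and 0 lower in Col10+ cells, with a median log2 difference of 0.99, but 3 of the 6 were the members Cd36, Fabp4 and Lpl. Without them 3 of 10 were higher (Fabp5, Angptl4 and Fabp3), with a median of 0.55. Fabp5, an epidermal-type fatty acid binding protein that macrophages also make, had 5.24 FPKM in the Col2+ sort against 158 FPKM in the Col10+ sort. Angptl4, a secreted inhibitor of Lpl, was at 9.29 and 37.7 FPKM. In the list of fatty acid and triglyceride synthesis 0 of 10 were higher and 1 was lower, with a median of -0.10. Elovl6, an enzyme that elongates fatty acids, was the lower one, at 16.7 and 7.85 FPKM, and was within the limit once the sorts were centred (log2 difference -0.72). The most abundant gene of that list, the citrate-cleaving enzyme Acly, was at 109 and 106 FPKM. In the fatty acid oxidation list 2 of 10 were higher and 0 lower (median 0.40): Cpt1a, which admits fatty acids to mitochondria, at 2.35 and 14.1 FPKM, and the pyruvate dehydrogenase kinase gene Pdk4 at 3.24 and 15.5 FPKM. In the lipid droplet list 3 of 9 were higher, one of them the member Plin2, and 1 lower (median 0.19). Plin3, a droplet coat of many tissues, was at 4.98 and 15.8 FPKM. G0s2, an inhibitor of lipolysis, was at 62 and 30.1 FPKM, and its log2 difference of -1.02 became -0.72 with centring, within the limit. Of the genes called higher in these lists, Fabp3 (2.32 FPKM in the Col2+ sort), Cpt1a, Pdk4, Plin3 and Pnpla2 reached 5 FPKM only through the Col10+ sort. They could not come out as lower.

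The regulator lists went both ways, beside 13.8% of all genes higher, 14.2% lower and a median of -0.31. Of 11 adipogenic transcription factors at 5 FPKM or more, 2 were higher (Cebpa and Cebpd) and 2 lower in Col10+ cells, with a median of -0.18. The lower ones were Egr2, at 73.8 and 8.04 FPKM, and Klf4, at 198 and 37.3 FPKM. Of 6 inhibitors of adipogenesis 4 were lower and 1 higher (median -2.15). Dlk1, the membrane protein Pref-1 that keeps preadipocytes undifferentiated, had 778 FPKM in the Col2+ sort against 106 FPKM in the Col10+ sort. The transcription factor gene Klf2 was at 221 and 42.1 FPKM. Wnt10b was the higher one, at 0.144 and 5.53 FPKM, a log2 difference of 2.51. It reached 5 FPKM only through the Col10+ sort. Of 6 markers of adipocyte precursors and marrow stroma 3 were higher and 1 lower (median 1.06). Cxcl12, the chemokine of marrow stroma, was at 0.128 and 41.2 FPKM, and F3, which encodes tissue factor, at 97.5 and 8.98 FPKM. The higher ones, Cxcl12, Cd34 and Icam1, reached 5 FPKM only through the Col10+ sort and could not come out as lower. None of the 7 brown fat markers reached 5 FPKM; Ucp1 was at 1.52 and 0.264 FPKM.

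The second comparison set Runx2_cHom_KO against Runx2_cHet_KO osteoblasts. Zfp423, Cebpd, Fabp4 and Pparg were each higher in both Runx2_cHom_KO libraries than in either Runx2_cHet_KO library, and Plin2 was lower in both. Of these differences only that of Zfp423 had a limma adjusted p under 0.05, and it was smaller than 2-fold. The limits for a call were a Benjamini-Hochberg adjusted p of 0.05 and a 2-fold change, 1 on the log2 scale. By that rule limma called 0 of the 8 members tested, against 3.69% of all 11909 genes (2.30% higher and 1.39% lower in Runx2_cHom_KO); 3 members had an unadjusted p under 0.05, against 26.8% of all genes. Groups that did not overlap were also common: 26.7% of all genes were higher, and 31.3% lower, in both Runx2_cHom_KO libraries. Adipoq and Plin1 were under 1 FPKM in every library and were not tested.

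Zfp423 had 15.4 and 15.6 FPKM in Runx2_cHet_KO against 22.6 and 23.7 FPKM in Runx2_cHom_KO. The libraries of each genotype lay close together and the groups did not overlap. The means were 15.5 ± 0.116 and 23.1 ± 0.773 FPKM (SD, n = 2 each), and the log2 change was 0.55 with a standard error of 0.10 (limma adjusted p = 0.0414). An adjusted p under 0.05 with a higher value in Runx2_cHom_KO was found for 3.78% of all genes. Leaving out 1 library kept the change between 0.51 and 0.58 but raised the adjusted p to between 0.053 and 0.28. With all 4 libraries the adjusted p was 0.0753 with no filter on low values and 0.0804 with untrended, non-robust variances. The levels of Zfp423 in osteoblasts exceeded those in the rib sorts, in a table normalized separately.

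Cebpd was the most abundant of the 10 genes in every osteoblast library. It was at 66.3 and 33.7 FPKM in Runx2_cHet_KO and at 93.8 and 111 FPKM in Runx2_cHom_KO. Both Runx2_cHom_KO libraries were higher, but the Runx2_cHet_KO libraries differed from each other 1.96-fold. The change was 1.09 (standard error 0.33) and did not pass (limma adjusted p = 0.127). Without Runx2_cHet_KO library 1, the higher of that pair, it was 1.57 and passed (limma adjusted p = 0.0091), and without library 2 it was 0.62 and did not (limma adjusted p = 0.0538). Such a fit takes its spread from the Runx2_cHom_KO pair and assumes that the lone Runx2_cHet_KO library varies likewise. Cebpa was at 7.59 and 4.91 FPKM in Runx2_cHet_KO and at 6.1 and 4.98 FPKM in Runx2_cHom_KO. Its groups overlapped, and its change of -0.13 (standard error 0.22, limma adjusted p = 0.752) took either sign when 1 library was left out, from -0.40 to 0.14.

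Pparg was hardly detected in osteoblasts. It had 0.434 FPKM and a listed value of 0 in Runx2_cHet_KO, against 1.41 and 1.03 FPKM in Runx2_cHom_KO. It was tested only because both Runx2_cHom_KO libraries reached 1 FPKM. In log2(FPKM + 1) the change was 0.88 and had a limma adjusted p of 0.109, and it became 2.50 with a pseudocount of 0.1 (adjusted p = 0.171).

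Fabp4 had the largest change of the members in log2(FPKM + 1); with a pseudocount of 0.1 its change was 2.31, below the 2.50 of Pparg. Fabp4 had 7.06 and 2.62 FPKM in Runx2_cHet_KO against 38.6 and 12.3 FPKM in Runx2_cHom_KO. All values of one genotype were above all of the other, and both pairs of libraries were wide apart, 2.69-fold and 3.14-fold. The change was 2.09 with a standard error of 0.74 (limma adjusted p = 0.196). Leaving out 1 library gave changes between 1.30, without Runx2_cHom_KO library 1, and 2.87, with adjusted p between 0.218 and 0.462. Plin2 was at 18.8 and 8.68 FPKM in Runx2_cHet_KO and at 7.65 and 5.72 FPKM in Runx2_cHom_KO. Its change of -0.86 (standard error 0.36, limma adjusted p = 0.21) passed without Runx2_cHet_KO library 2 (-1.38, adjusted p = 0.0249) and shrank to -0.34 without Runx2_cHet_KO library 1, both again with the spread of the Runx2_cHom_KO pair alone.

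Lpl and Cd36 overlapped between the genotypes. Lpl was at 6.53 and 1.97 FPKM in Runx2_cHet_KO and at 7.71 and 5.09 FPKM in Runx2_cHom_KO, a change of 0.62 with a standard error of 0.48 (limma adjusted p = 0.476). Without Runx2_cHet_KO library 2, the lowest of the 4, the change was -0.05. Cd36 was at 5.74 and 0.987 FPKM in Runx2_cHet_KO and at 3.05 and 1.5 FPKM in Runx2_cHom_KO. Its highest and lowest values were therefore both in Runx2_cHet_KO. Its change of -0.20 (standard error 0.65, limma adjusted p = 0.875) became -1.08 without Runx2_cHet_KO library 2, 0.68 without Runx2_cHet_KO library 1 and 0.15 without Runx2_cHom_KO library 2.

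**Figure D3:**
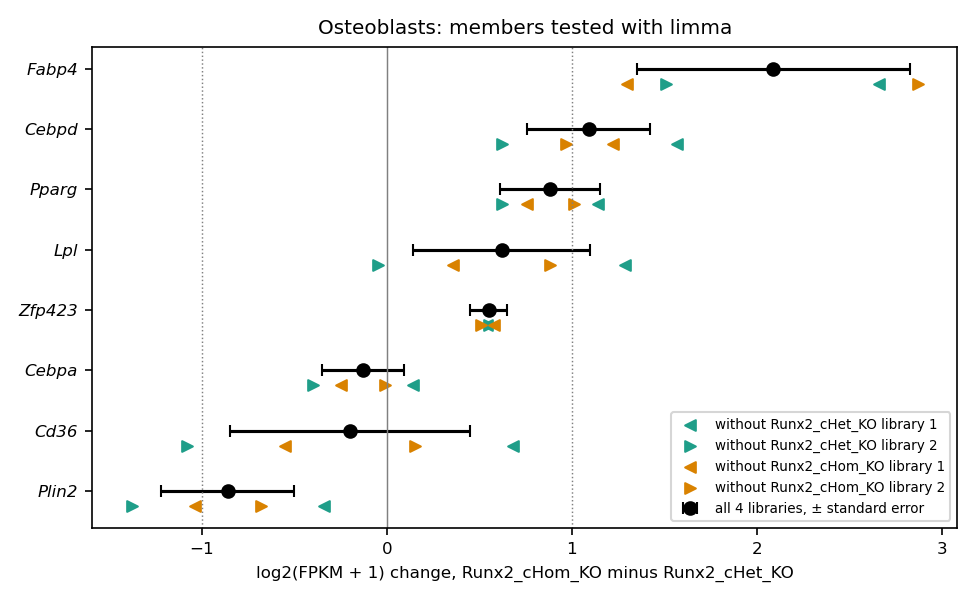
Change in log2(FPKM + 1), Runx2_cHom_KO minus Runx2_cHet_KO, of the 8 members tested (black, with limma's standard error over 4 libraries) and the same with 1 library left out (triangles); dotted lines mark the 2-fold limit. Zfp423 has the narrowest spread, from 0.51 to 0.58, while Cd36, Lpl and Cebpa fall on either side of 0 depending on the library left out.

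Adipocyte-defining transcripts were at or near 0 in the osteoblasts. Adipoq was listed at 0 in 3 libraries and was at 0.059 FPKM in Runx2_cHom_KO library 2. Plin1 was listed at 0 in Runx2_cHet_KO library 2 and Runx2_cHom_KO library 1 and was at 0.0314 and 0.223 FPKM in the others. Cidec, Retn and Cfd were listed at 0 in all 4 libraries. Of the 19 mature adipocyte genes, 7 were tested and limma called 0. An unadjusted limma p under 0.05 was found for 3 of the 7, against 26.8% of all genes. Their median change was 0.62, beside -0.03 over all genes, and 0.61 for the 4 that are not members. In both Runx2_cHom_KO libraries 5 of the 7 were higher and 0 lower, against 26.7% and 31.3% of all genes. Of these 5, Lipe and Slc2a4 reached the level for testing only with a Runx2_cHom_KO library.

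Members and markers of other cells also differed between libraries of the same genotype. Of the 7 members tested that were above 0 in both Runx2_cHet_KO libraries, 4 (Fabp4, Lpl, Plin2 and Cd36) were at least 2-fold higher in library 1 than in library 2, against 4.31% of all such genes, and 0 were 2-fold lower. Cd36 was 5.82-fold higher in library 1. In Runx2_cHom_KO 2 of the 8, Fabp4 and Cd36, were at least 2-fold higher in library 1 than in library 2, against 1.89% of all genes above 0 in both. The 12 macrophage markers summed to 475 FPKM in Runx2_cHet_KO library 1, 71.2 FPKM in library 2, and 82.7 and 103 FPKM in the Runx2_cHom_KO libraries; none was listed at 0. For example, C1qb was at 76.2 FPKM in Runx2_cHet_KO library 1 and at 10.6, 14.4 and 14.8 FPKM in the others. The 10 endothelial markers summed to 55.2 and 36.5 FPKM in Runx2_cHet_KO and to 102 and 82.1 FPKM in Runx2_cHom_KO, and all 10 were higher in both Runx2_cHom_KO libraries. Among all genes 26.7% were higher in both, and 2.30% were called higher. limma called 2 of the 10 endothelial markers, Tek and Esam. Kdr, Tie1, Emcn and Cldn5 reached the level for testing only with a Runx2_cHom_KO library. Skeletal muscle markers, which include no member, summed to 5.02 and 6.88 FPKM and to 68.9 and 80.1 FPKM. All 8 tested were called higher, beside 2.30% of all genes. Apart from Des, at 2.57 and 2.65 FPKM in Runx2_cHet_KO, they were tested only because Runx2_cHom_KO libraries reached 1 FPKM. The filter therefore favoured higher values among them. Osteoblast markers moved the other way: all 9 were lower in both Runx2_cHom_KO libraries, and limma called 3 of them lower. Among all genes 31.3% were lower in both, and 1.39% were called lower. Bglap had 21.7 and 32.6 FPKM in Runx2_cHet_KO and was listed at 0 in both Runx2_cHom_KO libraries (limma adjusted p = 0.00298). Dmp1, an osteocyte matrix protein gene, was at 124 and 55.9 FPKM and at 0.9 and 2.86 FPKM (limma adjusted p = 0.0275), and Sp7, the osteoblast factor osterix, at 39.8 and 50.7 FPKM and at 12.8 and 11.5 FPKM (limma adjusted p = 0.00988). The part of these cells in the members' values was not tested.

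**Figure D4:**
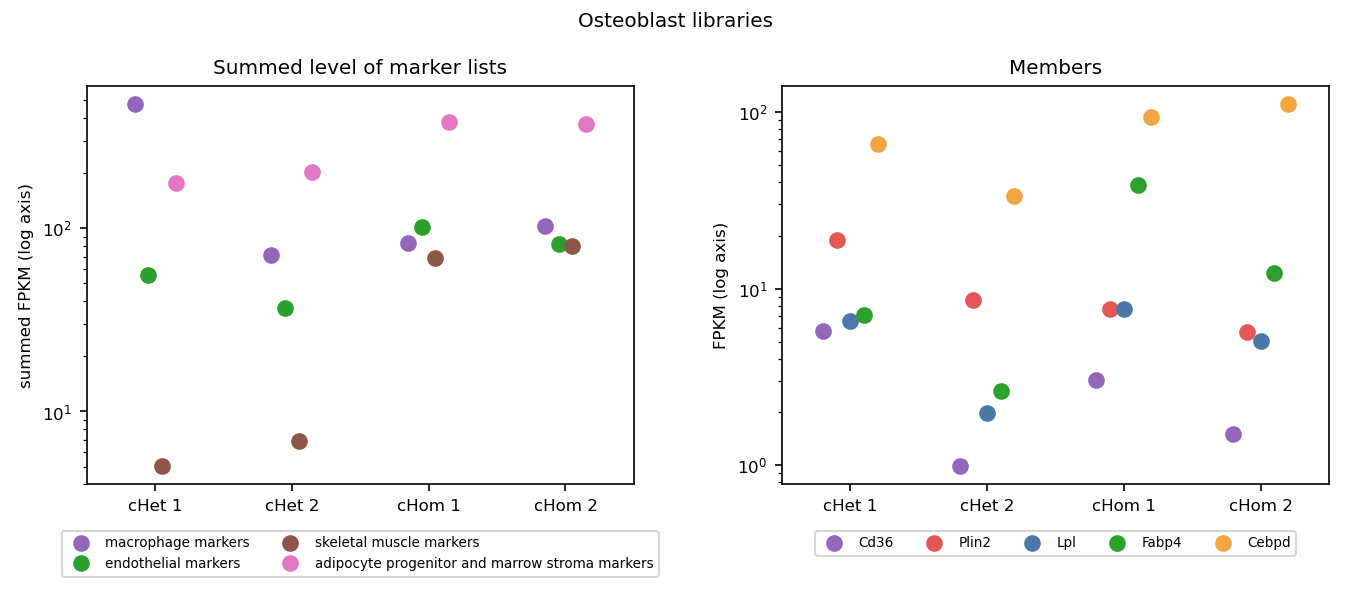
Summed FPKM of 4 marker lists (left) and FPKM of 5 of the 10 genes (right) in the 4 osteoblast libraries, on log axes; points are single libraries, set side by side within a library. Macrophage markers are highest in Runx2_cHet_KO library 1, at 475 FPKM, where Cd36 and Plin2 also have their highest values, while endothelial markers and Fabp4 are higher in both Runx2_cHom_KO libraries.

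Genes whose pattern over the 6 values was most like that of 4 members were found by distance. The measure was the root mean square distance of log2(FPKM + 1), centred on the gene's mean within each table, among 9199 other genes at 5 FPKM or more in any value. Nearest to Fabp4 was Cldn5, a claudin on the endothelial marker list, at a distance of 0.19. It was at 0.0939 and 11.5 FPKM in the rib sorts, at 1.54 and 0.206 FPKM in Runx2_cHet_KO and at 8.12 and 2.67 FPKM in Runx2_cHom_KO. Gpr116 came next, at 0.47. Nearest to Lpl were Fcna (0.17) and the cholesterol exporter gene Abca1 (0.20). Nearest to Zfp423 were Fem1c (0.04) and Triobp (0.05), and to Pparg Gch1 (0.06) and Zbtb46 (0.07). Small distances are common for genes that vary little on this scale.

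Among the other lipid lists few genes passed the test in osteoblasts. In the uptake list limma called 0 of 15, with 5 at an unadjusted p under 0.05, against 26.8% of all genes. The acyl-CoA synthetase family gene Slc27a3, at 19.8 and 18.9 FPKM in Runx2_cHet_KO and 9.54 and 10.3 FPKM in Runx2_cHom_KO, had an adjusted p of 0.0188 and a change of -0.90, within the size limit; Lmf1, a maturation factor of Lpl, had 0.0498 and -0.64. In the synthesis list 0 of 11 were called, with 3 at an unadjusted p under 0.05, and in the oxidation list 0 of 10, with 0 at that level. In the lipid droplet list 1 of 10 rose and 0 fell: G0s2 rose from 1.32 ± 0.511 to 5.1 ± 1.31 FPKM (SD, n = 2 each; limma adjusted p = 0.0365). The median changes of the uptake, synthesis, oxidation and droplet lists were -0.05, -0.01, -0.14 and 0.18, beside -0.03 over all genes.

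Among regulators and precursor markers limma called 1 of 17 adipogenic factors, 2 of 8 inhibitors and 4 of 12 precursor and stroma markers, beside 3.69% of all genes; the lists were not tested against each other. Ebf2, a transcription factor of brown and beige precursors, rose from 1.08 and 0.547 FPKM in Runx2_cHet_KO to 3.43 FPKM in both Runx2_cHom_KO libraries (limma adjusted p = 0.0323), the 1 adipogenic factor called; the median change of the 17, which include 4 members, was 0.44. Ebf1 and Klf4 also had an adjusted p under 0.05, with changes of 0.97 and 0.84. Among the inhibitors of adipogenesis 1 rose and 1 fell, with a median change of 0.55. Klf2 and Nr2f2 also had a limma adjusted p under 0.05, with changes of 0.89 and 0.97, within the size limit. Dlk1 rose from 33.1 and 32 FPKM to 194 and 168 FPKM, a change of 2.44 with a standard error of 0.11 (limma adjusted p = 0.00298). Wnt10b, a ligand that blocks adipogenesis, fell from 4.83 and 6.22 FPKM to 1.8 and 0.975 FPKM (limma adjusted p = 0.0303). Of the precursor and stroma markers 4 rose and 0 fell, with a median change of 0.99. Pi16, a marker of fibroblast-like precursors in many tissues, was at 1.99 and 5.14 FPKM in Runx2_cHet_KO and at 30.9 and 32.3 FPKM in Runx2_cHom_KO. Dpp4, which marks early fat precursors, was at 0.473 and 1.99 FPKM and at 8.95 and 8.67 FPKM. Like Ebf2, Dpp4 reached the level for testing only with the Runx2_cHom_KO libraries. Cd34 and Ebf3 were the others, with changes of 1.68 and 1.33. Lepr, the leptin receptor of marrow stroma, was lower in both Runx2_cHom_KO libraries (16.9 and 37.4 FPKM, then 15.7 and 13.6 FPKM), a change of -0.75 that did not pass (limma adjusted p = 0.296). The osteoblast calls made with all 4 libraries were lost when either Runx2_cHom_KO library was left out. Such a fit has 1 Runx2_cHom_KO library and takes its spread from the Runx2_cHet_KO pair alone. It therefore cannot tell whether the calls rest on both Runx2_cHom_KO libraries.

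**Figure D5:**
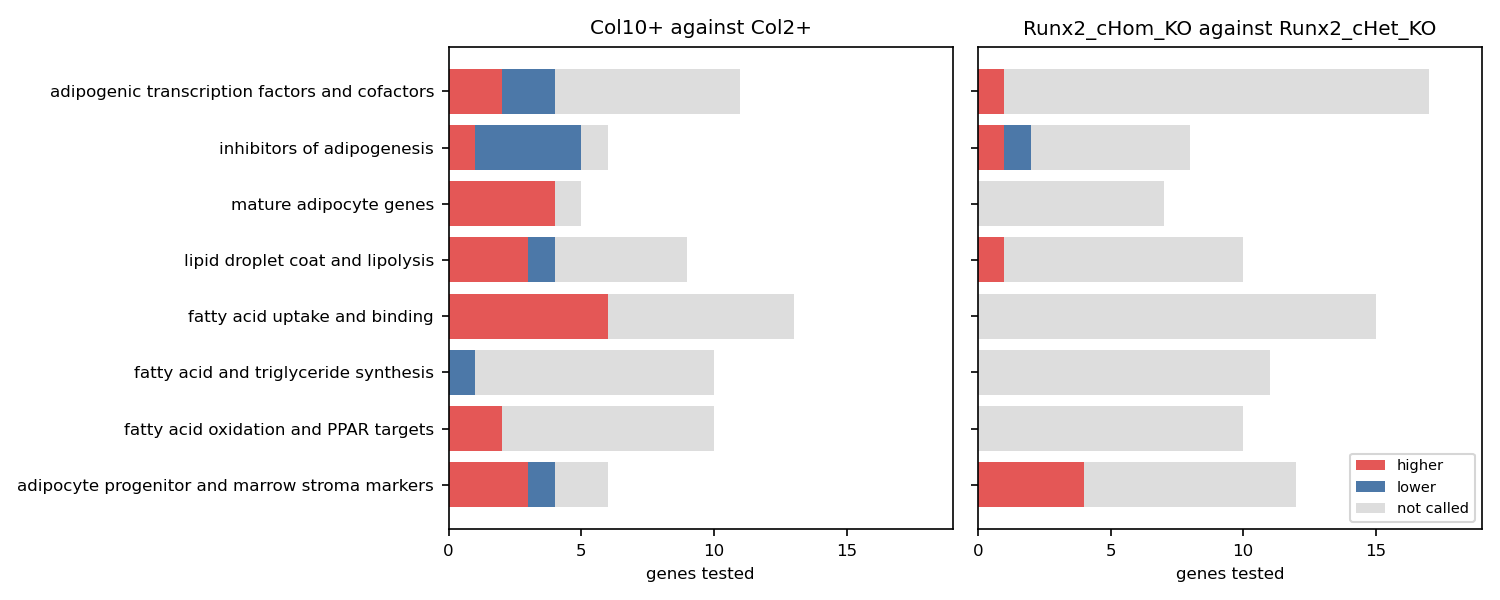
Number of genes called higher, called lower and not called in 8 lists, for Col10+ against Col2+ (by size alone, 1 value per sort) and for Runx2_cHom_KO against Runx2_cHet_KO (limma, 2 libraries each). The uptake list has 6 of 13 genes higher in Col10+ cells, 3 of them members, and the precursor list has 4 of 12 genes higher in Runx2_cHom_KO.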

How the data were processed

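Per the labels' protocols, rib libraries were made from 100 ng of RNA with a TruSeq kit and calvarial ones from 1.7 ng with a SMARTer Stranded Pico kit. The submitters' processing notes name TopHat2 2.1.0, Cufflinks, Cuffdiff 2.2.1 and build mm9, with no order. The authors deposited FPKM values, 1 per rib sort and 1 per osteoblast library, per the file headers; how rib replicates were combined is not given in these sources. A further column of the rib file (1 in all) matched no sample and was not used. Rows without a name (3444) or with a date for a name (25 and 26) were left out. Depth was unknown: low values gave only relative depth, with 1 read of Runx2_cHet_KO library 1 worth 0.795 to 0.844 times a read of the others. A value listed at 0 may be a failed estimate.

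limma 3.58.1 in R 4.3.3, with trended and robust variances, was fitted to log2(FPKM + 1) of genes that reached 1 FPKM in 2 or more osteoblast libraries, and was tested on simulated data. This scale understates changes of low genes. A gene under 1 FPKM in any Runx2_cHet_KO library passed the filter only with a Runx2_cHom_KO library, and the reverse. The two-sided exact permutation p of a member cannot go below 0.333. Members, lists and the naming rule (up to 4 called genes per list, or 2 abundant ones, and the 2 genes most like 4 members) were chosen with earlier results of these data known. Genes named after their values were seen were Cd14 and the markers listed at 0, Retn, Lep, Cfd, Cidec, Ucp1, C1qb, Lepr, Slc27a3 and Lmf1. So were Ebf1, Klf4, Klf2, Nr2f2 and Acta2 (osteoblasts), Spp1, Cspg4, Mcam and the mural markers under 5 FPKM. Sparc, Des and the genes named for passing a filter through a single group were also named after their values were seen. Alternatives changed the pseudocount, filter, scaling, variances, rows per name and libraries.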

Additional observations from a re-analysis of the deposited data

How the results depend on the processing

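Of 62 osteoblast values of members under alternatives that kept all 4 libraries, 61 stayed on the same side of the limits and 0 changed sign. The adjusted p of Zfp423, with a change within the 2-fold limit, was nevertheless above 0.05 in 3 of them: 0.0753 with no filter on low values, 0.0804 with untrended variances and 0.0968 with a replicate block. Of 50 rib values 49 stayed on the same side and 1 changed sign, that of Pparg (-0.18, and 0.11 with the sorts centred); Adipoq counted as higher in Col10+ cells (log2 difference 1.39) with no minimum level. Leaving out 1 library reversed Cebpa (range -0.40 to 0.14), Lpl (-0.05 to 1.29) and Cd36 (-1.08 to 0.68), and moved the number of members called between 0 and 1. The count over all genes then ran from 0 to 609 (0 to 378 higher, 0 to 280 lower), against 439 (274 and 165). With no filter on low values, which raised the number tested to 18312, it was 248 (153 higher and 95 lower). The labels do not say whether same-numbered libraries were paired. Their deviations showed no correlation over all genes (-0.05 over 11909 genes), which cannot exclude a pairing that affects few genes. A replicate block gave 174 higher and 119 lower genes and called 1 member, Fabp4 (2.09, limma adjusted p = 0.0274). In the rib sorts centring left 1418 genes higher and 654 lower, 68.4% higher in place of 49.2%; no minimum level gave 1940 higher, and a minimum of 10 FPKM gave 731. The cause of these shifts was not tested, apart from the number of genes tested. Without counts, low values such as those of Pparg in osteoblasts have no counting interval.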

Other observations

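Mural cells, the contractile cells around vessels that can hold fat precursors, were followed by 8 markers. In the rib sorts 3 of the 8 reached 5 FPKM, of which 1 (Acta2, 4.43 and 12.9 FPKM) was higher in Col10+ cells and 0 lower. Cspg4, at 222 and 125 FPKM, and Mcam, at 11.8 and 8.21 FPKM, were within the limit. Of those under 5 FPKM, Rgs5 was at 0.0376 FPKM in the Col2+ sort and 4.32 FPKM in the Col10+ sort, Kcnj8 at 0.014 and 3.89 FPKM, Abcc9 at 0.00935 and 4.3 FPKM, Notch3 at 0.129 and 3.05 FPKM, and Myh11 at 0.0336 and 0.979 FPKM. In the osteoblasts limma called 2 of 8 higher and 0 lower in Runx2_cHom_KO, beside 2.30% and 1.39% of all genes. Abcc9, a potassium channel subunit of pericytes, rose from 4.35 and 3.61 FPKM to 9.88 and 9.28 FPKM (limma adjusted p = 0.0207). The smooth muscle myosin gene Myh11 rose from 0.205 and 0.426 FPKM to 2.1 and 2.93 FPKM (limma adjusted p = 0.0297). Myh11 was tested only because the Runx2_cHom_KO libraries reached 1 FPKM. Called or not, 6 of the 8 were higher and 2 lower in both Runx2_cHom_KO libraries, beside 26.7% and 31.3% of all genes. The lower ones were Acta2, with a change of -1.04 (limma adjusted p = 0.238), and Cspg4, with -0.59 (limma adjusted p = 0.033). Gpihbp1, which holds Lpl on the capillary wall, had a listed value of 0 in the Col2+ sort and 3.22 FPKM in the Col10+ sort. Its osteoblast values were 2.38 and 1.45 FPKM in Runx2_cHet_KO and 10.6 and 3.79 FPKM in Runx2_cHom_KO, a change of 1.38 that did not pass (limma adjusted p = 0.134); it was chosen after its values were seen.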
